A study of Mus musculus with 10 samples.

Results

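Histone lysine methyltransferases, called writers here, and histone lysine demethylases, called erasers, were followed in mouse liver as a list of 39 genes, 25 writers and 14 erasers. The writers also hold Eed and Suz12, core subunits of a methyltransferase complex, and Kmt2e, which reads rather than writes methylation. Members were found by symbol in the annotation of the array's probe sets. This gave 95 probe sets for 36 members, 22 writers and all 14 erasers, out of 18193 genes with a symbol of their own on the array. Setd8 was not found under that symbol and is given below as Kmt5a, the name the annotation uses for the same gene. Suv39h1 and Ash1l were not analysed here. Of the 36 members, 27 had more than 1 probe set. Unless said otherwise, a gene is given by its brightest probe set, judged by the mean of the 10 arrays.

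The 10 animals were male B6C3F1/Crl mice, a hybrid of a C57BL/6 father and a C3H/He mother, received at an age of 29 to 32 days and given 5 days to settle. For 28 days, 5 of them received phenobarbital at 0.05% (w/v) in their water. The other 5 were controls, and no other allele or agent is named for either group. Whole liver RNA of each animal went to its own Affymetrix array, in a series whose title concerns 5-hydroxymethylcytosine, an oxidised form of methylated DNA, after exposure to a carcinogen that does not damage DNA. Values are log2 expression levels, so a difference of 1 is a doubling.

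Writers add methyl groups to lysines of the histone tails, with S-adenosylmethionine as the donor, and most of them do so with a SET domain. Erasers remove them, either with a flavin cofactor (KDM1 family) or with a JmjC domain that needs iron, oxygen and 2-oxoglutarate. Methylation of lysine 4 of histone H3 marks active promoters and enhancers, methylation of lysine 36 and lysine 79 marks transcribed genes, and methylation of lysine 9 and lysine 27 marks silenced chromatin. Phenobarbital acts in hepatocytes through the constitutive androstane receptor, a nuclear receptor that switches on drug-metabolising genes.

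Cyp2b10, the classical target of that receptor, stood at 5.62 to 7.07 in controls and at 13.45 to 13.56 in treated animals, so every treated animal had responded. The hepatocyte markers were bright, with Alb, the albumin gene, at a mean of 14.97. In whole liver, fewer cells of a type and less RNA per cell cannot be told apart. The arrays also differed in technical measures: 6 of 7 compared between the groups had an adjusted p under 0.05. The poly-A spike-ins are bacterial RNAs that are put into each sample ahead of labelling, and 24 probe sets read them. Their mean was 7.77 to 8.64 for control replicates 1, 2, 3 and 5, 6.40 for control replicate 4, and 5.76 to 6.58 for treated arrays. The groups differed (exact permutation test, two-sided, p = 0.0238; 0.0333 after Benjamini-Hochberg adjustment for these measures). A further set of spike-ins, put in at hybridisation, had 11.01 ± 0.24 for controls and 10.66 ± 0.09 after treatment (SD, n = 5 each; exact permutation p = 0.0317, adjusted 0.037). A fit with these 2 sets of arrays as a block compares the treated arrays with control replicate 4 alone, and its values are called within-set values below. The upper quartile of the arrays was 7.38 to 7.45 in controls and 7.30 to 7.35 in treated animals, without overlap (exact permutation p = 0.0079, adjusted 0.0278).

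Most members that passed the test were lower, and the erasers' median change lay further below 0 than the writers', an order that turned with the spike-in mean as a covariate. Of 36 members, 9 were lower and 2 higher at an adjusted p under 0.05 (limma, Benjamini-Hochberg over all genes), which is 25.0% lower and 5.56% higher. Over all 18193 genes, 11.3% were lower, 9.02% were higher and 20.3% passed in either direction, against 30.6% of the members. Members lie in the brighter part of the scale, where falls were more common: among the 9095 genes above the median level, 29% passed, 19.8% lower and 9.21% higher. Of the 33 members among these genes, 8 (24.2%) were lower, close to this background. Among erasers, 5 of 14 were lower and none higher, and among writers 4 of 22 were lower and 2 higher. The median log2 change was -0.17 for erasers, -0.07 for writers and 0.01 for all genes. Among genes above the median level it was -0.17 for erasers, -0.08 for writers and -0.04 for all. Changes were negative in 12 of 14 erasers, 16 of 22 writers and 48.4% of all genes, a share that was not matched for brightness. All changes were small: the largest fall was that of Suz12, to 61.6% of the control level, and no member reached a doubling or halving on its chosen probe set.

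With the spike-in sets as a block, no member passed limma, and 0.786% of all genes did (0.484% higher and 0.302% lower). The count at an unadjusted p under 0.05 was 1 of 36 members, against 13.3% of all genes. The fit with the spike-in mean as a covariate also called no member, where 0.709% of all genes passed (0.517% higher and 0.192% lower), and 2 members had an unadjusted p under 0.05, against 12.7% of all genes. The median within-set change was -0.11 for erasers, -0.06 for writers and -0.04 for all genes. With the covariate the order of the classes turned, with a median of -0.078 for erasers and -0.088 for writers. The fits with and without the block share the treated arrays, so their signs are not independent. These signs were the same in 27 of 36 members (75.0%) and in 74.0% of all genes. With the block, which rests on control replicate 4 alone, the larger part of the change remained for Ezh2, Kmt2c, Kdm3b, Kdm4c and Kdm2b. With the covariate it remained for Kdm3b (-0.21), Kdm4c (-0.25) and Kdm2b (-0.19), while Ezh2 had -0.15 and Kmt2c -0.18. The plot of all members shows the change without and with the block for each gene.

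**Figure D1:**
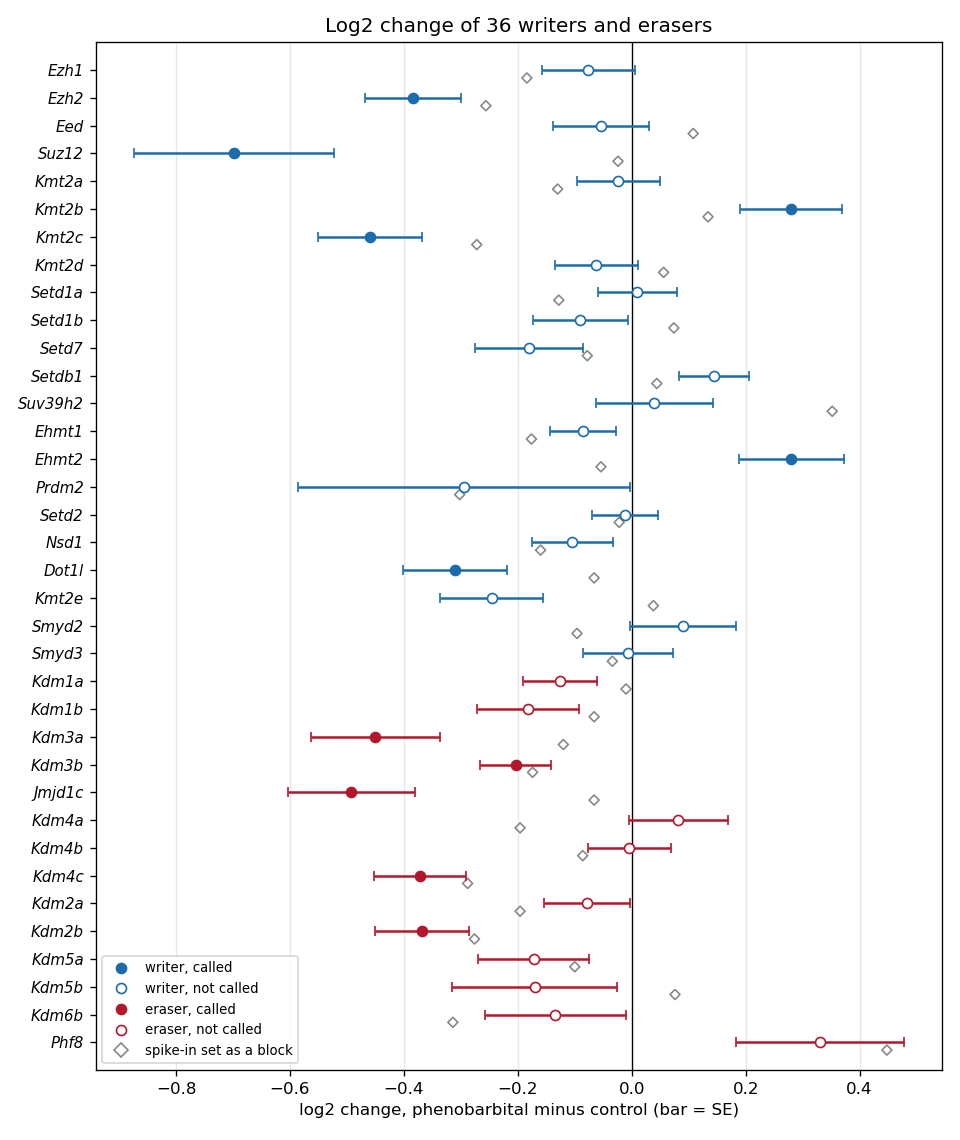
Log2 change (phenobarbital minus control, horizontal axis) of the 36 measured members, writers in blue and erasers in red, with the SE as a bar. Filled circles passed limma at an adjusted p under 0.05, and grey diamonds give the change with the spike-in set as a block. Suz12 (-0.70) lies farthest to the left and its diamond is at -0.02. Kdm2b (-0.37) and Kdm4c (-0.37) have diamonds at -0.28 and -0.29. The diamonds rest on control replicate 4 as the only control.

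Averaged over its members, each class gave a level per animal. The writers' mean level was 8.03 ± 0.03 (SD, n = 5) for controls and 7.93 ± 0.05 (SD, n = 5) after treatment. Its ranges of 7.98 to 8.07 and 7.87 to 7.99 overlapped. The erasers' mean was 8.06 ± 0.07 in controls and 7.90 ± 0.07 in treated animals, with ranges of 7.98 to 8.14 and 7.79 to 7.99. The difference between the classes, set to 0 in the mean of the controls, lay between -0.06 and 0.08 in controls and between 0.02 and 0.14 in treated animals. The classes therefore overlapped between groups in this difference, and it was not tested, since the members were chosen with results known.

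The promoters of the 4 called members with the largest falls among those in the promoter table are shown because they share a feature of the family, a high content of CpG dinucleotides, the sites of cytosine methylation and hydroxymethylation. The table is that of RefSeq on GRCm38.p6, which holds a window from 250 bases before to 50 bases after the start of 25 of the 36 members. Where a gene has several windows (2 for Jmjd1c and 3 for Kdm3a), the first listed is given. The windows are Suz12 on the plus strand at chr11:79992856-79993155, Jmjd1c on the plus strand at chr10:67126838-67127137, Kmt2c on the minus strand at chr5:25498734-25499033 and Kdm3a on the minus strand at chr6:71632868-71633167. Capitals mark matches to the GC box GGGCGG, the binding sequence of SP1-type factors, on either strand, and matches may overlap.
Suz12: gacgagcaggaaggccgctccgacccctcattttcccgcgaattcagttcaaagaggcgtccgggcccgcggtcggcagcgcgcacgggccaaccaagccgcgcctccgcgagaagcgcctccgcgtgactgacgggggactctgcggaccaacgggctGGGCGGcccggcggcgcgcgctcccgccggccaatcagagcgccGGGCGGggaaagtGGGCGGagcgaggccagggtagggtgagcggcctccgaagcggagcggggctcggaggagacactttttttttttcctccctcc
Jmjd1c: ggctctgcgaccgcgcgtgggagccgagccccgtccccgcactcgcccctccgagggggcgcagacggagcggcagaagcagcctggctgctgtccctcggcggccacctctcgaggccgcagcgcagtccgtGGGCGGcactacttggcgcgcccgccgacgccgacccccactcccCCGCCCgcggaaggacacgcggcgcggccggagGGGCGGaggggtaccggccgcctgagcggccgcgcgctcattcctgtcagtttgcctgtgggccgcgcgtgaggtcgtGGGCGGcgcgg
Kmt2c: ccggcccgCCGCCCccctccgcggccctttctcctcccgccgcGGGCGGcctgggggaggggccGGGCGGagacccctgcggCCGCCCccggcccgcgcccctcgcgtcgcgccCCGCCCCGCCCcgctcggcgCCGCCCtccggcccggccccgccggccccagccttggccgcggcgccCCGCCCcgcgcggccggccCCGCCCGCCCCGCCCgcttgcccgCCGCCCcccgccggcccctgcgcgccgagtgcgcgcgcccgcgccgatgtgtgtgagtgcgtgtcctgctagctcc
Kdm3a: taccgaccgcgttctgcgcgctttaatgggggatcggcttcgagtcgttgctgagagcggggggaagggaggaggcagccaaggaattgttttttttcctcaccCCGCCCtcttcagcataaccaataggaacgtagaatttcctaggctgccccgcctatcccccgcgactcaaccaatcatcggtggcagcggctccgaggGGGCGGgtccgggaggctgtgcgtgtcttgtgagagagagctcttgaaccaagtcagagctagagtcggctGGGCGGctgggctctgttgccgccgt

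These 4 windows held 41 (Suz12), 47 (Jmjd1c), 56 (Kmt2c) and 24 (Kdm3a) CpG dinucleotides in 300 bases, against a median of 7 over the windows of 27025 genes. Of the 25 member windows, 24 were CpG-rich (GC content over 50% and an observed to expected CpG ratio over 0.6), as were 33.9% of all windows. Among the 8 lower members with a window, 7 were CpG-rich, and all 17 of the other members were, so this feature was common to members that did and did not change. The GC box was found in 16 of 25 member windows, 5 of them among the 8 lower members, and in 35.9% of all windows. The single-copy nuclear receptor sequence AGGTCA was in 3 member windows (Ehmt1, Kdm4c and Kdm1a) and in 16% of all. The direct repeat of that sequence on a strand with a spacer of 4 bases, a form bound by the constitutive androstane receptor, was in no member window and in 0.0111% of all. The core of the hypoxia response element, ACGTG, was in 5 member windows (Kdm5b, Ezh2, Dot1l, Ehmt2 and Phf8) and in 19.7% of all, and the E2F-type sequence TTTCCCGC was in that of Suz12 alone among members and in 1.11% of all. All were searched on both strands, and a match describes the letters only.

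Polycomb repressive complex 2 places methyl groups on lysine 27 of histone H3, with Ezh1 or Ezh2 as the catalytic subunit and Eed and Suz12 as the core subunits that catalysis requires. Suz12 was called lower, and so was Ezh2. Suz12 (probe set 1420021_s_at) read 9.01, 9.11, 9.25, 8.26 and 9.04 in control replicates 1 to 5 and 8.61, 7.87, 8.26, 8.07 and 8.37 in treated replicates 1 to 5. Control replicate 4 lay within the treated range, and the other 4 controls lay above every treated animal. The log2 change was -0.70 ± 0.18 (SE, limma adjusted p = 0.0159) and the within-set value -0.02. On the other lower probe sets of Suz12 control replicate 4 differed in place. It was at the treated mean on 1427253_s_at and 1452364_at (differences of 0.004 and -0.006), and 0.37 and 0.38 above it on 1420022_s_at and 1449661_at, where the other controls stood higher still.

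Ezh2 (1416544_at), the subunit typical of dividing cells, read 6.69, 6.76, 6.55, 6.47 and 6.52 in controls and 6.32, 6.14, 6.42, 6.14 and 6.05 in treated animals. Every treated animal lay below every control. Its log2 change was -0.38 ± 0.085 (SE, limma adjusted p = 0.00888), and -0.26 within the set. Of 13 measured markers of dividing cells, 2 were higher and none lower, where 9.02% of all genes were higher and 11.3% lower. Changes were negative in 4 of the 13. Their summed level (log2 of the sum of linear values) was 10.89 to 11.04 in controls and 10.94 to 11.23 in treated animals. The part of dividing cells in the fall of Ezh2 was not tested. Ezh1, the subunit of resting cells, had 8.22 to 8.41 in controls and 7.95 to 8.39 in treated animals, a log2 change of -0.08 (95% interval -0.25 to 0.10). Eed had a log2 change of -0.05 (-0.24 to 0.13). Neither passed.

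Among writers of lysine 4 of histone H3, Kmt2c fell, Kmt2b rose and the other 5 measured did not pass. Kmt2c, an enhancer methyltransferase of the MLL family, read 9.28, 9.21, 9.49, 9.02 and 9.04 in controls and 8.65, 8.77, 8.90, 8.67 and 8.75 in treated animals (1434179_at). The groups did not overlap. Its log2 change was -0.46 ± 0.09 (SE, limma adjusted p = 0.00522), which is 72.7% of the control level, and the within-set value was -0.27. Groups without overlap occurred in 5 members, all lower, which is 13.9% of the 36, where 12.9% of all genes had none (7.21% lower and 5.73% higher).

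Kmt2b, a close relative of the founding MLL protein that acts at CpG-rich promoters, read 8.22, 8.12, 7.81, 8.21 and 7.96 in controls and 8.46, 8.28, 8.22, 8.28 and 8.48 in treated animals. The lowest treated value equalled the highest control value. The log2 change was 0.28 ± 0.09 (SE, limma adjusted p = 0.0436), 0.13 within the set, and the call was lost when any of 7 animals was left out (control replicates 2, 3 and 5 and phenobarbital replicates 1, 2, 4 and 5). Kmt2d, the partner enhancer methyltransferase of Kmt2c, had a log2 change of -0.06 (95% interval -0.22 to 0.10), Kmt2a of -0.02 (-0.18 to 0.13), Setd1a of 0.01 (-0.14 to 0.16) and Setd1b of -0.09 (-0.27 to 0.09). Setd7, which adds a single methyl group to histone H3 and to several other proteins, had -0.18 (-0.38 to 0.02). In this fit, which takes no account of the spike-ins, these 5 intervals exclude the Kmt2c estimate of -0.46. The interval of Kmt2c itself was -0.66 to -0.26, and those of Setd7 and Setd1b overlap it. The differences between these 5 genes and Kmt2c were not tested.

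Writers of lysine 9 of histone H3 included the second called rise. Ehmt2 (G9a), which dimethylates that lysine, read 8.55, 8.55, 8.41, 8.92 and 8.50 in controls and 8.72, 8.93, 8.90, 8.97 and 8.81 in treated animals. Control replicate 4 lay among the treated values and the other controls below all of them. The log2 change was 0.28 ± 0.09 (SE, limma adjusted p = 0.048), while the within-set value was -0.05, of opposite sign. The call was lost in 8 of 10 omissions of a single animal, kept only without control replicate 4 or phenobarbital replicate 1. The call of Ehmt2 was also lost when its probe sets were averaged (0.18), and its dimmer probe set, 1426888_at, had 0.07. Ehmt1, its partner in the same complex, had a log2 change of -0.09 (95% interval -0.21 to 0.04), within the set -0.18. Setdb1, which silences retroviral elements, had 0.14 (0.01 to 0.28, limma adjusted p = 0.115), and of the alternatives run passed only after quantile normalisation. Suv39h2, a heterochromatin methyltransferase, was near the lower quartile of the arrays at 4.54 in controls and 4.58 in treated animals. A within-set value of 0.35 made Suv39h2 the member with an unadjusted p under 0.05 in the block fit.

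Among writers of other lysines, Dot1l, the enzyme for lysine 79 of histone H3, was called lower. It read 7.53, 7.31, 7.64, 7.20 and 7.54 in controls and 7.23, 7.07, 7.03, 7.05 and 7.29 in treated animals. Phenobarbital replicates 1 and 5 lay above the lowest control, replicate 4, and the other treated animals below all controls. The log2 change was -0.31 ± 0.09 (SE, limma adjusted p = 0.0313), -0.07 within the set. The call was lost without control replicate 1, 3 or 5, without phenobarbital replicate 2, 3 or 4, after quantile normalisation and when its probe sets were averaged. Setd2, the enzyme that trimethylates lysine 36, had the narrowest range of any member over all 10 animals, at 8.85 to 9.05 in controls and 8.89 to 8.97 in treated animals (log2 change -0.01, 95% interval -0.14 to 0.11). Nsd1, which dimethylates the same lysine, had -0.10 (-0.26 to 0.05). Kmt5a (Setd8), which adds the first methyl group to lysine 20 of histone H4 and is no member by symbol, had -0.07 (-0.28 to 0.14). Smyd2 and Smyd3, which also methylate proteins other than histones, had 0.09 (-0.11 to 0.29) and -0.01 (-0.18 to 0.16), and neither passed.

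Among erasers, all 3 measured members of the KDM3 family, which remove methyl groups from lysine 9 of histone H3, were called lower. Of all genes 11.3% were lower, and of those above the median level 19.8%. The median change of these 3 was -0.45, against -0.12 with the block and -0.036 with the covariate. Jmjd1c, the largest of the 3 and a known partner of nuclear receptors, read 10.27, 10.36, 10.46, 9.79 and 10.20 in controls and 9.64, 9.61, 9.86, 9.83 and 9.68 in treated animals (1426900_at). The log2 change was -0.49 ± 0.11 (SE, limma adjusted p = 0.00969). Control replicate 4 lay within the treated range, and the within-set value was -0.07.

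Kdm3a, an enzyme known to be induced by low oxygen, read 8.73, 8.94, 8.93, 8.36 and 8.49 in controls and 8.38, 8.04, 8.31, 8.27 and 8.20 in treated animals. A single treated animal, replicate 1, lay above the lowest control, again replicate 4. The log2 change was -0.45 ± 0.11 (SE, limma adjusted p = 0.0161), -0.12 within the set. Kdm3b read 8.86, 8.71, 8.67, 8.72 and 8.79 in controls and 8.63, 8.51, 8.48, 8.50 and 8.61 in treated animals, without overlap. Its change was the smallest of the called members at -0.20 ± 0.06 (SE, limma adjusted p = 0.0356), but the within-set value of -0.17 was nearly as large. The call of Kdm3b was lost after quantile normalisation, after median centring and in 6 of 10 omissions of a single animal (control replicates 1, 2 and 5 and phenobarbital replicates 2, 3 and 4).

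In the KDM4 family, which removes methyl groups from lysine 9 and lysine 36 of histone H3, Kdm4c fell. It read 6.88, 6.75, 6.75, 6.63 and 6.56 in controls and 6.26, 6.16, 6.47, 6.41 and 6.41 in treated animals, with no overlap. Its log2 change of -0.37 ± 0.08 (SE, limma adjusted p = 0.00794) stood against -0.29 within the set. Kdm4a had 0.08 (95% interval -0.11 to 0.27) and Kdm4b 0.00 (-0.16 to 0.15), and neither passed.

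In the KDM2 family, which removes methyl groups from lysine 36 and binds unmethylated CpG DNA through a zinc finger, Kdm2b fell. It read 7.26, 7.23, 7.31, 7.07 and 6.94 in controls and 6.69, 6.92, 6.89, 6.72 and 6.75 in treated animals, again without overlap (log2 change -0.37 ± 0.08 SE, limma adjusted p = 0.00941, -0.28 within the set). The larger part of the changes of Kdm3b, Kdm4c and Kdm2b remained within the set, where control replicate 4 is the only control. With the spike-in mean as a covariate Kdm2b had -0.19. Kdm2a, its closest relative, had -0.08 (95% interval -0.24 to 0.08).

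The remaining erasers did not pass on their chosen probe sets. Kdm1a (LSD1) and Kdm1b (LSD2), the flavin-dependent enzymes that act on lysine 4, had log2 changes of -0.13 (95% interval -0.27 to 0.01) and -0.18 (-0.38 to 0.01). Kdm5a and Kdm5b, which remove trimethylation from lysine 4, both had -0.17 (-0.38 to 0.04 and -0.48 to 0.14). Kdm6b, a lysine 27 demethylase induced by inflammatory signals, had -0.13 (-0.40 to 0.13). Phf8, an X-linked demethylase of lysine 9 of histone H3 and lysine 20 of histone H4, had 0.33 (0.01 to 0.65, limma adjusted p = 0.129).

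**Figure D2:**
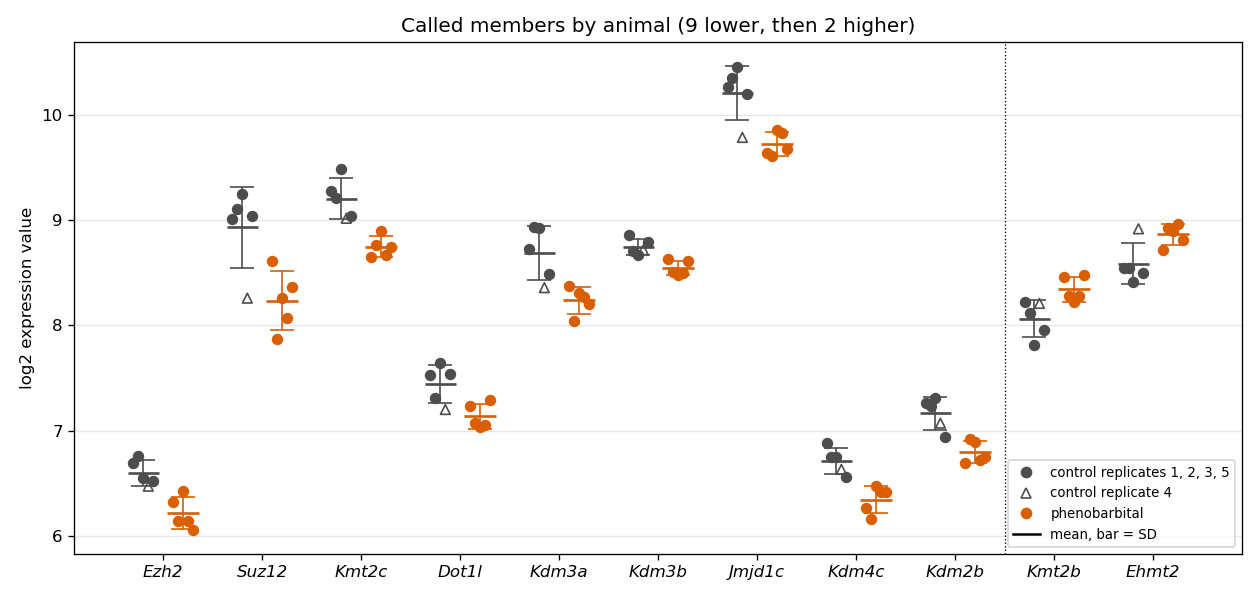
Log2 expression value (vertical axis) of the 11 called members in each animal, controls in grey and phenobarbital in orange, with the group mean and the SD as bars. Open triangles mark control replicate 4. It lies among or beside the treated animals for Suz12, Dot1l, Kdm3a, Jmjd1c and Ehmt2 and among the controls for Kdm3b, Kdm4c and Kdm2b.

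Control replicate 4 was the lowest control in 6 of the 9 members called lower, and it lay nearer to the treated mean than to the mean of the other controls in 6 of the 11 called members. Its spike-in level was that of the treated arrays, and the part of this in the members' falls was not tested. Without control replicate 4, 10 members were lower and 2 higher, and calls also rose over all genes, to 25.3% (13.2% lower and 12.1% higher).

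Long transcripts often have several probe sets, and those of some members disagreed. Tested singly over all probe sets, 27 of the 95 (28.4%) were lower and 1 (1.1%) higher, against 11% lower and 7.7% higher of all probe sets (18.7% in either direction). The probe sets of a gene are not independent, and these shares were not matched for brightness. Kmt2c was lower on 4 of 4 probe sets (-0.64 to -0.46), and Suz12 on 5 of 6 (-1.45 to -0.63, with 0.12 on the sixth). Kdm2b was lower on 2 of 2 and Kdm3b on 2 of 2. Jmjd1c was called on its brightest probe set alone, with -0.36 and -0.27 on the other 2, and Dot1l on 1 of 2 (-0.31 and 0.04). Ehmt2 and Kmt2b had no probe set that passed in this test over more features.

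In 5 members the chosen probe set did not pass but a dimmer probe set was called lower: Ezh1, Nsd1, Kmt2e, Kdm5a and Kdm6b. Kmt2e, a MLL-family protein that reads rather than writes methylation of lysine 4, had changes from -1.38 to 0.07 over its 6 probe sets. Its brightest probe set (1434704_at) read 9.66, 9.69, 9.68, 9.28 and 9.51 in controls and 9.46, 9.23, 9.45, 9.21 and 9.24 in treated animals, a log2 change of -0.25 (limma adjusted p = 0.0808). Probe set 1439107_a_at of Kmt2e read 6.63, 6.47, 7.24, 5.17 and 6.82 in controls and 5.62, 4.87, 5.23, 4.62 and 5.07 in treated animals, a change of -1.38 ± 0.31 (SE, limma adjusted p = 0.0107 over all probe sets). There control replicate 4 fell far below the other controls and 0.09 above the treated mean.

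Kdm5a also divided, with changes from -1.38 to 0.39 over 6 probe sets. Its brightest probe set had -0.17, while 1452360_a_at read 7.58, 7.27, 7.77, 6.24 and 7.65 in controls and 6.83, 5.65, 5.66, 5.19 and 6.28 in treated animals (-1.38 ± 0.32 SE, limma adjusted p = 0.0123). Probe set 1437106_at of Kdm5a was lower by a log2 change of -0.60, and 1445541_at, at 3.36 near the bottom of the scale, was higher by 0.39. On 1452360_a_at control replicate 4 lay 0.32 above the treated mean and below every other control. Ezh1 was lower on 1418290_a_at alone (-0.49), where the groups did not overlap and control replicate 4 lay 0.68 above the treated mean, that is, with the other controls. Nsd1 was lower on 1 of 4 probe sets (-0.65) and Kdm6b on 2 of 4 (-0.39 and -0.33), of which the second also carries the symbol of another gene, 1700064E03Rik. The positions of these probe sets along their transcripts were not analysed here. For beta-actin, which has probe sets at both ends of the transcript, the excess of the 3' end over the 5' end was 1.54 ± 0.18 (SD, n = 5) among controls, of which replicate 4 had 1.28, and 1.25 ± 0.06 (SD, n = 5) after treatment (exact permutation p = 0.0238, adjusted 0.0333). For Gapdh this excess was -0.15 to -0.03 in controls, with replicate 4 at -0.15, and -0.28 to -0.21 after treatment, without overlap (exact permutation p = 0.0079, adjusted 0.0278). The part of these end differences in the disagreement between probe sets was not tested.

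**Figure D3:**
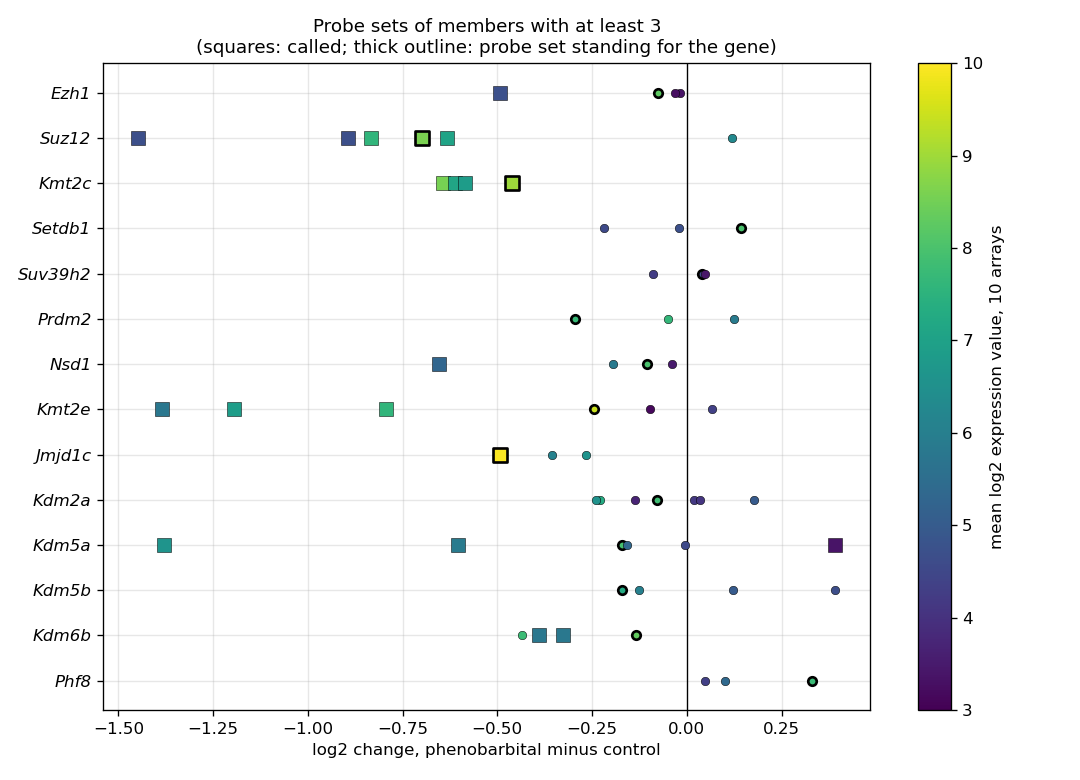
Log2 change (phenobarbital minus control, horizontal axis) of each probe set of the 14 members with at least 3, coloured by the mean log2 expression value over the 10 arrays. Squares passed limma over all probe sets, and thick outlines mark the probe set that stands for the gene. All 4 probe sets of Kmt2c lie close together, while those of Kmt2e and Kdm5a reach from above 0 down to -1.38.

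Some members varied more among treated animals than among controls. Prdm2, a zinc finger protein with a SET-type domain for lysine 9, read 7.85, 7.81, 7.98, 7.87 and 7.80 in controls and 8.80, 6.84, 7.17, 7.04 and 7.99 in treated animals. Phenobarbital replicates 1 and 5 lay above every control and the other 3 below every control, so the SD over 5 animals was 0.07 without and 0.82 with phenobarbital. The mean difference of -0.29 (95% interval -0.92 to 0.33) describes neither set of animals. A second probe set of Prdm2, 1429251_at, gave the same order of the treated animals, with 8.74, 6.92, 7.29, 7.11 and 8.05. The third, 1444123_at, did not, with 5.83 to 6.16.

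Phf8 was high in the same 2 treated animals, at 8.31 and 8.32 in phenobarbital replicates 1 and 5 against 7.51, 7.59 and 7.81 in the others and 7.46 to 7.65 in controls. Its dimmer probe sets did not show this: 1459392_at read 5.57 and 5.31 in these animals, the highest and the lowest treated values, and 1439132_at read 4.36 and 4.31 within a treated range of 4.30 to 4.45. Kdm5b was highest in phenobarbital replicate 1 (7.74) and between 6.80 and 7.17 in the other treated animals, where controls lay between 7.10 and 7.54. Across all members the spread was no wider after treatment, with a median SD of 0.12 in both groups and a larger SD among treated animals in 15 of 36. The spread itself was not tested, and these genes are singled out after their values were seen.

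**Figure D4:**
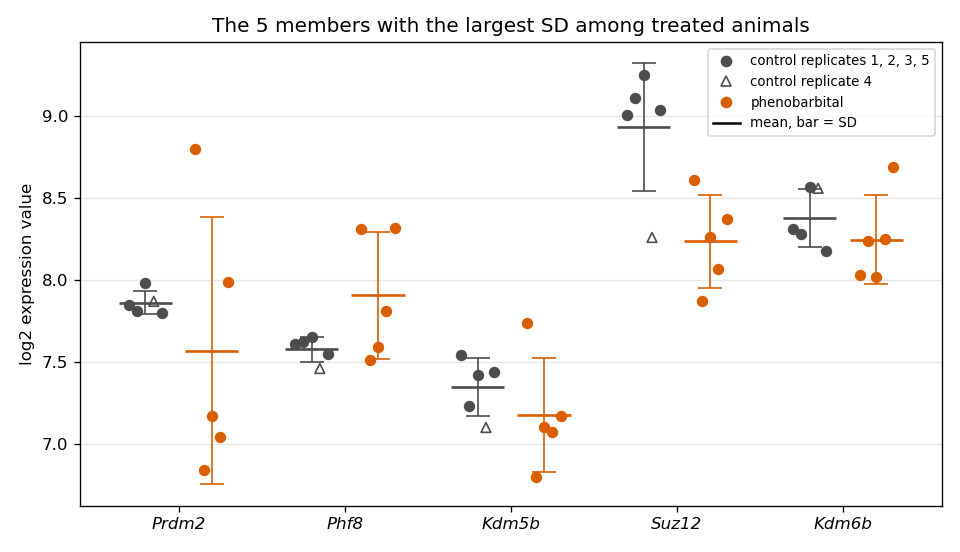
Log2 expression value (vertical axis) of the 5 members with the largest SD among treated animals, by animal, with the group mean and the SD as bars. Prdm2 spans 6.84 to 8.80 in treated animals and 7.80 to 7.98 in controls, and its treated animals lie above or below all controls.

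Partners of these enzymes were taken from 8 lists of complexes and related genes. Of 104 measured partner genes that are no members, 23 were lower (22.1%) and 6 higher (5.77%), against 11.3% and 9.02% of all genes. Of the 86 partners above the median level 26.7% were lower, against 19.8% of all such genes. The median log2 change was -0.08. With the spike-in sets as a block none passed limma, and 12 (11.5%) had an unadjusted p under 0.05, against 13.3% of all genes. Leaving out control replicate 2 or 3 or phenobarbital replicate 2 left 12 lower, and leaving out phenobarbital replicate 1 or 4 left 15. The other omissions of a single animal left 16 to 25 lower, with 25 lower and 8 higher without control replicate 4. Quantile normalisation gave 12 lower and 9 higher, and median centring 15 and 9.

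Calls among Polycomb partners were all lower, where 11.3% of all genes were lower and 9.02% higher. Accessory subunits of Polycomb repressive complex 2 had 3 of 7 lower and none higher: Mtf2, which guides the complex to CpG-rich DNA, at -0.63 (-0.31 within the set), and the histone-binding subunits Rbbp4 and Rbbp7 at -0.31 and -0.26 (-0.32 and -0.22). Polycomb repressive complex 1 binds the mark left by the first complex and ubiquitinates histone H2A. Of its 16 measured genes 3 (18.8%) were lower and none higher. Of its 12 genes above the median level 16.7% were lower, against 19.8% of all such genes. Changes were negative in all 16, against 48.4% of all genes, a share not matched for brightness. The sign was the same within the set in 13 of the 16. The 3 lower genes were Cbx2 at -0.59 (-0.57 within the set), Bmi1 at -0.46 (-0.18) and Pcgf5 at -0.33 (-0.17). Limma adjusted p-values of these 6 genes lay between 0.00499 and 0.04, and none passed within the set.

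The next lists stand beside 11.3% lower and 9.02% higher over all genes, and 19.8% lower above the median level. Partners of the lysine 4 writers had 2 of 13 lower and none higher, Hcfc2 (-0.52) and Psip1 (-0.31). Those of Kdm1a, the CoREST complex, had 4 of 10 lower and 1 higher, with Rcor3 at -0.46 and Phf21a at -0.30, and Gfi1b, with a control mean of 4.99, at 0.38. Heterochromatin protein 1 and the partners of Setdb1 had 2 of 7 lower, Cbx1 (-0.28) and Atf7ip (-0.26). Other lysine methyltransferases had 3 of 24 lower and 2 higher. Among them Prdm10, a zinc finger factor, had -0.64, Prdm8, with a control mean of 3.58, 0.43, and Setd6, which methylates the RelA subunit of NF-kappaB, -0.40. Other demethylases had 4 of 12 lower and 1 higher, among them the Y-linked Kdm5d (-0.39) and Uty (-0.33, but 0.06 within the set) and Jmjd6 (0.35).

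The suppliers of S-adenosylmethionine and 2-oxoglutarate, the substrates of writers and erasers, had 2 of 15 higher and 2 lower. Over all genes 9.02% were higher and 11.3% lower. The isocitrate dehydrogenases Idh2 and Idh3a rose by 0.36 and 0.30 (0.18 and 0.25 within the set), and Glud1, which makes 2-oxoglutarate from glutamate, fell, at -0.28 (-0.26).

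Some markers of liver cell types also passed, where 11.3% of all genes were lower and 9.02% higher. Among genes above the median level 19.8% were lower. Stellate cell markers were lower in 3 of 6 and higher in none, and their summed level was 12.51 to 12.62 in controls and 11.80 to 12.29 in treated animals. Markers of sinusoidal endothelium were lower in 4 of 7 and higher in none, with positive changes in the other 3. Their summed levels were 11.62 to 11.97 in controls and 11.23 to 11.63 in treated animals. Kupffer cell markers were lower in 1 of 6, with 11.24 to 11.68 and 11.23 to 11.65. Of 8 hepatocyte markers 2 were lower, Ass1 (-1.50, but 0.04 within the set) and Apob (-0.20), and their summed level was 17.46 to 17.48 in controls and 17.41 to 17.45 in treated animals, without overlap. Of 4 cholangiocyte markers Epcam was higher (0.54), with sums of 7.35 to 7.67 and 7.51 to 7.68, and of 2 red cell markers Alas2 was higher (0.38), with sums of 10.45 to 10.88 and 10.75 to 11.08. The B cell, T cell and neutrophil markers had no call, with summed levels of 5.20 to 7.51 over these 3 lists. In control replicate 4 the stellate sum was 12.62, the highest of all, and the endothelial sum 11.71. The part of these cells in the falls of the members was not tested.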

How the data were processed

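Liver RNA of 10 mice was labelled from its 3' end (0.1 µg total RNA, per the labels' protocols) and hybridised to Affymetrix arrays. The authors deposited log2 values for every probe set, which span 2.34 to 15.13. This span is the basis for taking them as log2. Their summarisation and normalisation are not given in the sources used here. GCOS is named in the submitters' processing notes. The number of arrays (n = 5 per group, separate animals) limits the precision.

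Of 45101 probe sets, 64 were controls, 34945 had 1 symbol, 932 several and 9160 none in the platform annotation. For each of 18193 genes, the brightest single-symbol probe set was used. Groups were compared with limma 3.58.1 in R 4.3.3 (lmFit, eBayes, two-sided, Benjamini-Hochberg over all genes, adjusted p under 0.05), which was tested on simulated data. Genes named were all members, Kmt5a, Cyp2b10, and up to 3 called genes per partner list with the largest change. Of the cell markers, Alb was named, as were the called ones of hepatocytes, cholangiocytes and red cells. Members and lists were chosen with earlier results of these data known. Alternatives were quantile normalisation and median centring over all probe sets, brighter genes alone, the mean of probe sets, single-transcript probe sets, array weights, a robust variance with a trend, a block for the replicate number, the spike-in sets as a block or their mean as a covariate, probe sets singly, and leaving out each animal. Promoter windows came from RefSeq (GRCm38.p6). Figures were drawn with matplotlib 3.10.9.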

Additional observations from a re-analysis of the deposited data

Results flagged for a closer look

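In 72 groups of 5 animals (36 members in each treatment group), 4 held an animal far from the others, where chance alone gives about 1 in 20, or 3.6. Suz12 stood at 8.26 in control replicate 4 against 9.01 to 9.25 in the other controls. Ehmt2 stood at 8.92 in control replicate 4 against 8.41 to 8.55. Kmt2d stood at 8.27 in phenobarbital replicate 1 against 8.51 to 8.59 in the other treated animals. Smyd3 stood at 6.06 in control replicate 3 against 6.18 to 6.20.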

How the results depend on the processing

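The calls of Ezh2, Suz12, Kmt2c, Kdm3a, Jmjd1c, Kdm4c and Kdm2b held in all 10 omissions of a single animal and in every other alternative that could be fitted except the 2 that use the spike-ins; Ezh2 lies outside the brighter genes and was not tested there. With the spike-in sets as a block, 0 members were higher and 0 lower, the writers' median minus the erasers' median was 0.050, and 88 genes were higher and 55 lower in all. With the spike-in mean as a covariate these values were 0 and 0, -0.010, and 94 and 35, and the erasers' median was -0.078. The writers' median was then -0.088, so the order of the classes turned. Ehmt2 reversed in these 2 fits (-0.054 and -0.038), as did Uty (0.060 and 0.079), and Atf7ip reversed with the mean of probe sets (0.087). The cause was not tested. With the mean of probe sets 1 member was higher and the difference of medians was 0.17, against 0.10; Kmt2e, Kdm5a and Nsd1 were then called. Counted by probe set, 1 was higher and 27 lower. After quantile normalisation the writers' median was 0.000 and the erasers' -0.086. The share of higher calls among all genes was 44.4%. It was 31.8% among genes above the median level, of which 838 were higher, 59.0% with arrays centred on their medians and 59.4% with quantile normalisation. Over the omissions of single animals, members higher ranged from 0 to 2 and lower from 7 to 10, the writers' median from -0.087 to -0.042, the erasers' from -0.201 to -0.127, their difference from 0.071 to 0.124, and genes higher from 1021 to 2206 and lower from 1377 to 2404. Without phenobarbital replicate 1, Prdm2 was called.

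The replicate numbers are shared by the groups, but deviations of same-numbered animals correlated between -0.024 and 0.116 only. With the replicate number as a block 2 members were higher and 10 lower, the added call being Kmt2e. Values near the bottom of the scale, as for Suv39h2, may understate changes, which was not tested.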
